A study of Mus musculus with 2 samples.

Results

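Mir103-1, Mir103-2, Mir107 and Mir33 are mouse microRNA genes that lie inside genes of metabolic enzymes and regulators. They were taken by gene name in the GENCODE M21 annotation and make up 4 of the 2202 microRNA genes counted. MicroRNA sequencing, which reads RNA below 30 nt, was done on hearts of 4-day-old female B6CASTF1/J mice, the first-generation hybrids of the C57BL/6J and CAST/EiJ strains. There were 2 libraries in 1 group, each technical replicate 1 of its heart. Animal 3 gave replicate 1, and replicate 2 is the heart of animal 4. The mice of both libraries shared age, sex and strain, the labels named no treatment, and both samples carried the same donor entry. Values are own-strand counts per hairpin gene, and CPM is a count per 1000000 counts over all microRNA genes of a library. Hairpin counts do not tell the mature microRNAs of its 2 arms apart. Variants of the CAST parent were not examined.

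A microRNA gene is transcribed into a hairpin from which a short mature strand is cut, and the seed, bases 2 to 8 of that strand, pairs with target messenger RNAs and lowers their output. Mir103-1, Mir103-2 and Mir107 lie in genes of pantothenate kinases, the enzymes that start coenzyme A synthesis, and their microRNAs are known as regulators of insulin sensitivity in mouse liver and fat. Mir33 lies in Srebf2, the gene of a transcription factor that switches on cholesterol synthesis, and miR-33 is known to repress Abca1, the transporter that exports cholesterol from cells. Heart muscle burns fatty acids as coenzyme A esters and relies on them more after birth.

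The hairpins are shown first because the counts below turn on which bases separate them. Lower case marks the hairpin and capitals mark its mature arms, the 5p arm before the 3p arm (RefSeq sequences, build GRCm38.p6, identical to GENCODE M21 for 4 of 4 genes).
Mir103-1: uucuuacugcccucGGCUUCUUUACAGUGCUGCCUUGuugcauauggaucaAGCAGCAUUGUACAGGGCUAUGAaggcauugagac
Mir103-2: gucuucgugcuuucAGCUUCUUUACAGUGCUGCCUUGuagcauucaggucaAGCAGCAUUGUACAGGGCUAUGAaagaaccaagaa
Mir107: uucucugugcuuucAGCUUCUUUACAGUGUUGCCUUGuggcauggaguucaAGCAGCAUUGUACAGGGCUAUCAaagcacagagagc
Mir33: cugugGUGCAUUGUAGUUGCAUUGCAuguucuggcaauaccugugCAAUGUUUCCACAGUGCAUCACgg

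Each mature strand is given next with its seed in capitals, so that shared seeds can be seen.
miR-103-3p: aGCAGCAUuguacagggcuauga
miR-107-3p: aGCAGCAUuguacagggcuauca
miR-103-1-5p: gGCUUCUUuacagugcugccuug
miR-103-2-5p: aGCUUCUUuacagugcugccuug
miR-107-5p: aGCUUCUUuacaguguugccuug
miR-33-5p: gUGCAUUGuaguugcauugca
miR-33-3p: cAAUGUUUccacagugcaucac

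The mature strands fall into 4 seed groups. miR-103-3p and miR-107-3p share the seed GCAGCAU with no other mouse microRNA among the 1679 mature sequences searched, and the 5p strands of the Mir103 and Mir107 genes share GCUUCUU among themselves alone in the same search. The seeds of miR-33-5p and miR-33-3p, UGCAUUG and AAUGUUU, were each found in no other mature sequence. Counted from the 5′ end of the strand, miR-103-3p and miR-107-3p differ by the substitution G22C, so that their first 21 bases are identical. miR-103-1-5p and miR-103-2-5p differ by G1A, and miR-103-2-5p and miR-107-5p by C16U.

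Mir103-1 and Mir103-2 carry the same 3p strand, so a read of it that starts at its first base matches both hairpins until it reaches 25 nt, which is 2 nt past the annotated end. A Mir107 read with the same start matches all 3 related hairpins up to 21 nt and Mir107 alone from 22 nt on. The sources name no aligner setting such as clipping, so whether base 22 was used to place a read is unknown. Reads of the 5p strands that start at their annotated first base are found in 1 hairpin from 16 nt, the shortest length examined. The longest stretch in common is 27 nt between the Mir103 hairpins and 24 nt between Mir107 and either of them. Outside the mature arms the 3 hairpins diverge: of the 17 positions at which Mir103-1 and Mir103-2 differ, 5 lie before the 5p arm, 1 in it, 5 in the loop, 0 in the 3p arm and 6 after it. No other annotated hairpin shares 18 nt with any of the 4, and Mir33 shares no such stretch with the others, its longest match to a Mir103 or Mir107 hairpin being 8 nt. The genome outside annotated microRNA genes was not searched.

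**Figure D1:**
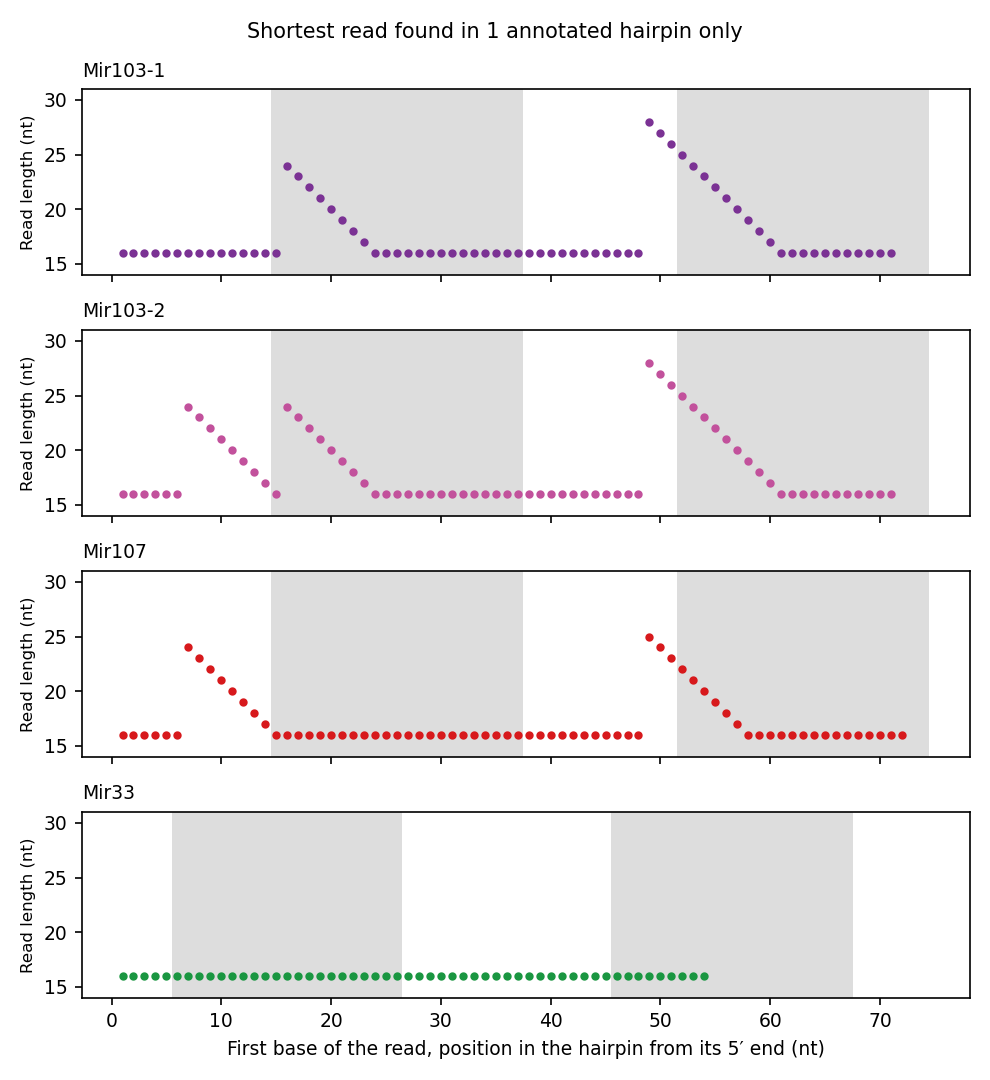
For each position in a hairpin (horizontal axis, nt from its 5′ end) a point gives the length in nt of the shortest read starting there that is found in that hairpin and in no other of the 2202 annotated hairpins on either strand, from 16 nt up; grey bands are the mature arms. Mir103-1 and Mir103-2 need 25 nt and Mir107 needs 22 nt at the first base of the 3p arm, while Mir33 needs 16 nt at every position that has a point.

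Each gene lies in an intron of its host, on the host's strand, and no annotated exon of any host transcript overlaps it (mm10, 1-based). Mir103-1 (ENSMUSG00000065553.1, chromosome 11, 35782396 to 35782481, plus strand) lies in intron 5 of Pank3, 688 nt after the upstream exon. Mir103-2 (ENSMUSG00000065563.1, chromosome 2, 131288052 to 131288137, plus strand) lies in intron 5 of Pank2, 454 nt after the upstream exon. Mir107 (ENSMUSG00000065594.1, chromosome 19, 34820687 to 34820773, minus strand) lies in intron 5 of Pank1, 326 nt after the upstream exon. The 3 Pank transcripts examined have 7 exons each, so these microRNA genes occupy the same intron by number, although the introns are 1740, 5801 and 7282 nt long in Pank3, Pank2 and Pank1. Mir33 (ENSMUSG00000065465.1, chromosome 15, 82198122 to 82198190, plus strand) lies in intron 16 of Srebf2, a transcript of 19 exons, 335 nt after the upstream exon. None of the 4 hosts holds another annotated microRNA gene.

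Mir107, the Pank1 gene, held far more counts than the other 3. It had 30096 counts in replicate 1 and 21359 in replicate 2, or 4690 CPM (95% Clopper-Pearson interval 4637 to 4743) and 3772 CPM (3722 to 3823), a mean of 4231 ± 649 CPM (SD, n = 2). It ranked 38 in replicate 1 and 43 in replicate 2 among the 2202 genes. Both libraries put it in the upper part of the ranking, with 0.469% of all counts in replicate 1 and 0.377% in replicate 2.

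The Mir103 genes were low against Mir107. Mir103-2, in Pank2, had 177 counts in replicate 1 and 104 in replicate 2, or 27.6 CPM (23.7 to 32.0) and 18.4 CPM (15.0 to 22.3), a mean of 22.97 ± 6.52 CPM (SD, n = 2). Mir103-1, in Pank3, had 18 and 11 counts, or 2.80 CPM (1.66 to 4.43) and 1.94 CPM (0.970 to 3.48), a mean of 2.37 ± 0.610 CPM (SD, n = 2). Mir103-2 lay above Mir103-1 in both libraries, by 9.83-fold in counts in replicate 1 and 9.45-fold in replicate 2, and their ranges did not overlap. Read from the layout of the files, which no source explains, these counts hold only reads that the authors' counting placed in 1 gene. On that reading the libraries had 5722879 and 5835632 multi-mapped reads, which are in no gene's count, and how many of them came from miR-103-3p is not given by the files. The counts therefore do not measure how much miR-103 the hearts held.

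Mir33, the Srebf2 gene, was low against Mir107 as well, though its sequence is shared with no annotated hairpin. It had 94 counts in replicate 1 and 75 in replicate 2, or 14.6 CPM (11.8 to 17.9) and 13.2 CPM (10.4 to 16.6), a mean of 13.9 ± 0.992 CPM (SD, n = 2). Its rank was 277 in replicate 1 and 264 in replicate 2. The means of all 4 genes lay above the median of 1.72 CPM over the 787 microRNA genes with a count. The order by mean was Mir107, Mir103-2, Mir33 and Mir103-1, the same in each library, and the ranges of neighbours over the libraries did not overlap. The narrowest gap was between Mir103-2 and Mir33 in replicate 2, where the counting intervals of 15.0 to 22.3 CPM and 10.4 to 16.6 CPM did overlap. The hairpins are 69 to 87 nt long and CPM was not divided by length. The files give no read positions. Intervals cover counting error only, by construction, and take each read as independent. No molecular identifiers are named, so whether the reads are independent is unknown.

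**Figure D2:**
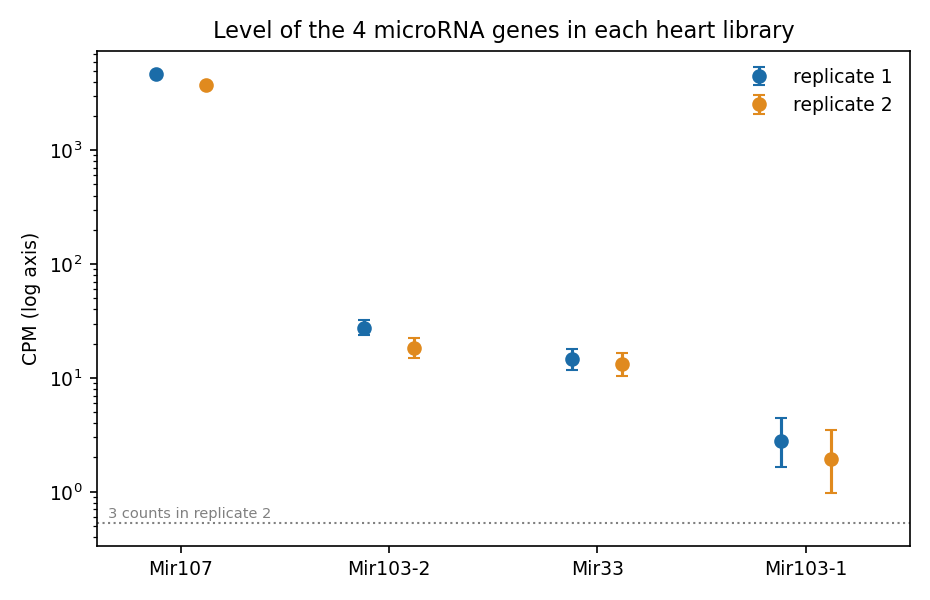
The vertical axis is CPM on a log scale and each point is a library, replicate 1 left of replicate 2, with its 95% Clopper-Pearson interval; the dotted line is 3 counts in replicate 2 (0.530 CPM). Mir107 lies at 4690 and 3772 CPM, and the other 3 genes lie between 1.94 and 27.6 CPM.

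Within the related trio, Mir107 took nearly all counts. Of the 30291 counts of Mir107, Mir103-1 and Mir103-2 in replicate 1, Mir107 held 99.36% (99.26 to 99.44), and of the 21474 in replicate 2 it held 99.46% (99.36 to 99.56). Mir107 outnumbered the sum of the Mir103 genes 154-fold in replicate 1 and 186-fold in replicate 2. The whole mature strands differ in copy number in the annotation, since miR-107-3p is found in 1 hairpin and miR-103-3p in 2. The part of unequal mappability in these ratios was not tested.

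Among all microRNA genes whose mature strands are in the RefSeq table, the Mir103 genes belong to a class of 61 in which some arms but not all are found in another hairpin. Of that class, 59.0% reached 10 counts in both libraries, and the median level of the 53 with a count was 18.5 CPM, between Mir103-1 at 2.37 CPM and Mir103-2 at 22.97 CPM. Mir107 and Mir33 belong to the 904 genes with no arm in another hairpin, of which 32.5% reached 10 counts in each library, with a median of 1.90 CPM over the 608 with a count. Of the 53 genes with every arm in another hairpin, 11.3% reached 10 counts in each library. These are descriptions of the classes, with no test.

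On the strand opposite to each gene, 0 counts were recorded for all 4 genes in both libraries. For Mir107 this allows an opposite-strand share of up to 0.00997% in replicate 1 and 0.0140% in replicate 2, taking 3 counts as the limit. For Mir33 it allows up to 3.19% and 4.00%, for Mir103-2 up to 1.69% and 2.88%, and for Mir103-1 up to 16.7% and 27.3%. The counts without strand were equal to the own-strand counts for each gene.

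**Figure D3:**
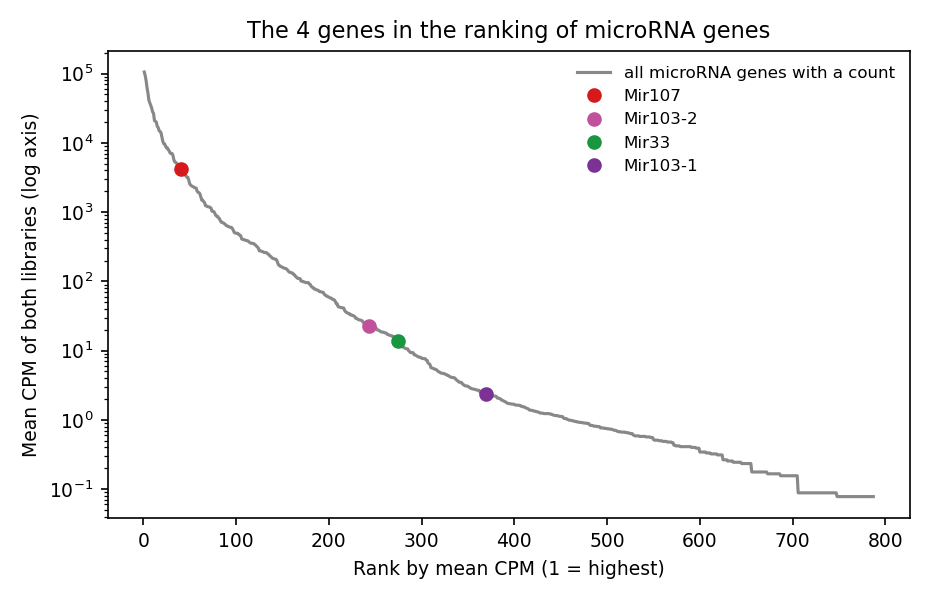
The curve gives the mean CPM of both libraries (vertical log axis) of the 787 microRNA genes with a count, ranked from highest to lowest (horizontal axis), and coloured points are the 4 genes. Mir107 lies at rank 41, Mir103-2 at 243, Mir33 at 275 and Mir103-1 at 369.

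Between the hearts, none of the 4 genes was called different. A gene was called when an exact binomial test on TMM-scaled library sizes gave a Benjamini-Hochberg adjusted p under 0.05 with over 2-fold, and 11.2% of the 491 genes tested were called (55 genes, 18 higher in replicate 1 and 37 higher in replicate 2; 39 and 22 with total counts in place of TMM). The count for these genes was 0 of 4, also 0 of 4 at an unadjusted p under 0.05 of any fold, which 51.1% of the genes tested reached (251 of 491), and 0 of 4 by edgeR's exact test with an estimated dispersion, which called 0.815% of the genes tested (0.407% higher in replicate 1 and 0.407% higher in replicate 2). The dispersion used by edgeR (0.125) was estimated from these same 2 libraries taken as 1 group, so the difference tested is part of its noise. Its 0 of 4 therefore does not show that the genes are alike. Either test compares 2 libraries, not conditions, and a gene that it does not call may still differ.

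Mir107 had a log2 ratio of replicate 1 over replicate 2 of −0.02 (95% interval −0.04 to 0.01, exact binomial test, adjusted p = 0.268). Mir103-2 had a log2 ratio of 0.25 (−0.10 to 0.62, exact binomial test, adjusted p = 0.278) and Mir103-1 one of 0.17 (−0.96 to 1.43, exact binomial test, adjusted p = 0.918). Mir33 had −0.19 (−0.64 to 0.27, exact binomial test, adjusted p = 0.566). The interval of Mir103-1 reaches past 2-fold on its upper side, so 18 and 11 counts do not place it within 2-fold, while the intervals of the other 3 stay within 2-fold. Under TMM the median size of the log2 ratio was 0.18 over the 4 genes and 0.44 over the 491 tested. With total counts the log2 ratios were 0.31 for Mir107, 0.58 for Mir103-2, 0.51 for Mir103-1 and 0.14 for Mir33. The medians therefore do not show that the 4 genes are steadier than most.

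The direction of the small differences of Mir107 and Mir33 depends on the scaling. Mir103-1 and Mir103-2 were higher in replicate 1 under all 7 settings, with log2 ratios of 0.15 to 0.51 and 0.23 to 0.58. In CPM on total counts all 4 genes were higher in replicate 1, and total counts raise every log2 ratio by 0.33 against TMM. On that scale Mir107 stood at 0.31 (exact binomial test, adjusted p = 3.13e-131) and Mir33 at 0.14, both with the opposite sign to the TMM value, and neither was past 2-fold. Mir107 also stood at 0.03 with DESeq2 size factors. Its adjusted p under the settings other than total counts ran from 0.00493, in the exact binomial test on the column without strand (log2 ratio −0.04), to 1 in edgeR's exact test, so 2 of 7 settings gave an adjusted p under 0.05, neither past 2-fold.

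**Figure D4:**
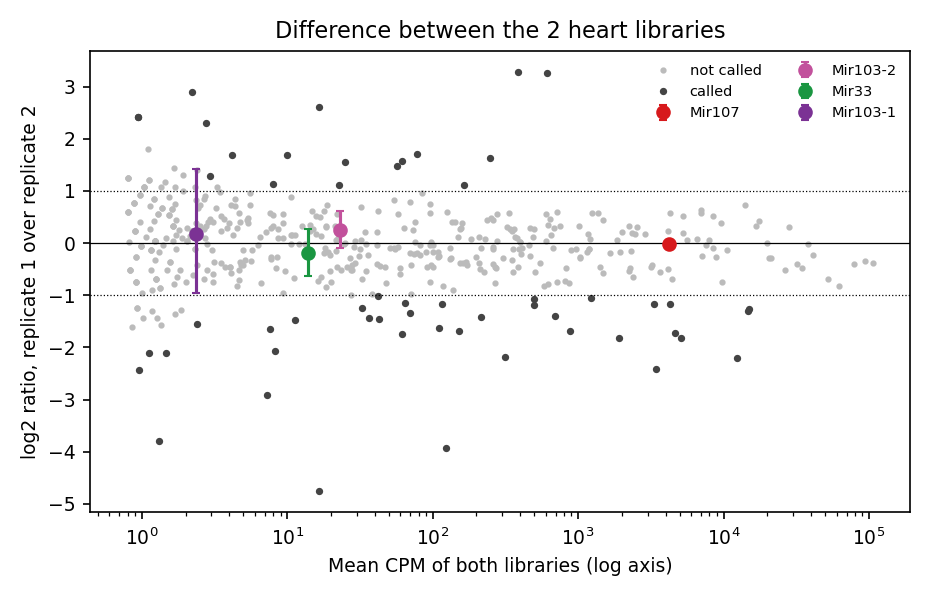
Each point is 1 of the 491 genes tested, with mean CPM of both libraries on the horizontal log axis and the log2 ratio of replicate 1 over replicate 2 under TMM on the vertical axis; bars are 95% counting intervals, dotted lines mark 2-fold and dark points are called genes. Mir107 lies at −0.02, Mir33 at −0.19, Mir103-1 at 0.17 and Mir103-2 at 0.25, all between the dotted lines.

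Ratios within a library do not depend on its scaling, and these were compared for the 6 pairs of the 4 genes. None of the 6 passed as different between the libraries (Fisher's exact test, two-sided, Benjamini-Hochberg over 6 pairs, with 0 of 6 at an unadjusted p under 0.05 as well). Mir103-1 made up 9.23% of its sum with Mir103-2 in replicate 1 (5.56 to 14.2, 95% Clopper-Pearson) and 9.57% in replicate 2 (4.87 to 16.5), an odds ratio of 0.961 with an interval of 0.411 to 2.35. Mir103-2 made up 0.585% of its sum with Mir107 in replicate 1 (0.502 to 0.677) and 0.485% in replicate 2 (0.396 to 0.587), an odds ratio of 1.21 (0.942 to 1.56, exact adjusted p = 0.408). Mir33 made up 34.7% of its sum with Mir103-2 in replicate 1 (29.0 to 40.7) and 41.9% in replicate 2 (34.6 to 49.5), an odds ratio of 0.736 (0.491 to 1.11, exact adjusted p = 0.408). Mir33 made up 0.311% of its sum with Mir107 in replicate 1 and 0.350% in replicate 2, an odds ratio of 0.889 (0.649 to 1.22). The 2 pairs of Mir103-1 with Mir107 and with Mir33 had odds ratios of 1.16 (0.519 to 2.72) and 1.31 (0.544 to 3.25). Both intervals reach past 2-fold on the upper side. The interval of Mir103-1 with Mir103-2 reaches past 2-fold on both sides, and that of Mir33 with Mir103-2 on its lower side. Only the intervals of Mir107 with Mir103-2 and with Mir33 stay within 2-fold.

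The first 6 bases of miR-103-3p and miR-107-3p, AGCAGC, also stand near the 5′ end of miR-15, miR-16 and their relatives, which are known to restrain the cell cycle. In these relatives the motif starts at base 2 in place of base 1, so the seeds are shifted by a base. The most abundant relative, Mir322, Mir15a and Mir15b show this, with the motif in capitals.
miR-107-3p: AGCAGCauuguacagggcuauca
miR-322-5p: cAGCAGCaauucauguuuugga
miR-15a-5p: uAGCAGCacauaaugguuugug
miR-15b-5p: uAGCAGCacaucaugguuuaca
The motif was searched on the mature strand in bases 1 to 8 and stood in 0.774% of the 1679 mature sequences.

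In the group of miR-15, miR-107 and their relatives Mir107 was the gene with the second-highest mean. This order is one of counts placed in 1 gene. Mir16-1 and Mir16-2 carry the same miR-16-5p, as the Mir103 genes carry the same miR-103-3p, and reads of such strands may be missing. Mir322 held 24892 CPM in replicate 1 and 28379 CPM in replicate 2, above Mir107 in both, and Mir15b held 2131 and 2643 CPM, below it in both. Of 14 listed symbols 13 were found, 12 had a count and 11 were tested. In the exact binomial test none passed as higher in replicate 1 (0 of 11), 3 passed as higher in replicate 2 and 8 were not called, against 3.67% and 7.54% of all genes tested. Their median level was 760 CPM over those with a count, against 1.72 CPM over all microRNA genes with a count. The 3 called were Mir195a (log2 ratio −1.68), Mir16-1 (−1.19) and Mir503 (−1.05). With total counts Mir16-1 (−0.85) and Mir503 (−0.72) came inside 2-fold, and edgeR's exact test called none of the 3. Mir107, Mir103-1 and Mir103-2 were among the 8 not called.

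Mir33 was low among the microRNA genes known to act on Abca1. It stood at place 12 of 15 by mean level, with a median over the list of 230 CPM. This place, like those in the lists below, ranks counts placed in 1 gene. Reads of a mature strand carried by several genes may be missing from such counts. The list was led by Mir27b with 3042 CPM in replicate 1 and 5455 CPM in replicate 2, Mir20a with 2042 and 1828 CPM, and Mir106b with 1741 and 1572 CPM. Below Mir33 were Mir302a (13.3 ± 2.10 CPM, SD, n = 2), whose range over the libraries overlapped that of Mir33, Mir26a-1 (4.81 ± 0.191 CPM) and Mir758 (2 and 4 counts). Of the 14 tested 1 gene, Mir144 (log2 ratio 1.56), was higher in replicate 1, while Mir26a-2 (−3.92) and Mir27b (−1.18) passed as higher in replicate 2, and 11 were not called, Mir33 among them, against 3.67% and 7.54% of all genes tested called in these directions. Mir27b was within 2-fold with total counts (−0.84). The exact test of edgeR called Mir26a-2 (adjusted p = 0.000629) and neither of the others. Mir144 is also a red blood cell gene, and the red blood cell markers held 489 CPM in replicate 1 and 126 CPM in replicate 2; their part was not tested.

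**Figure D5:**
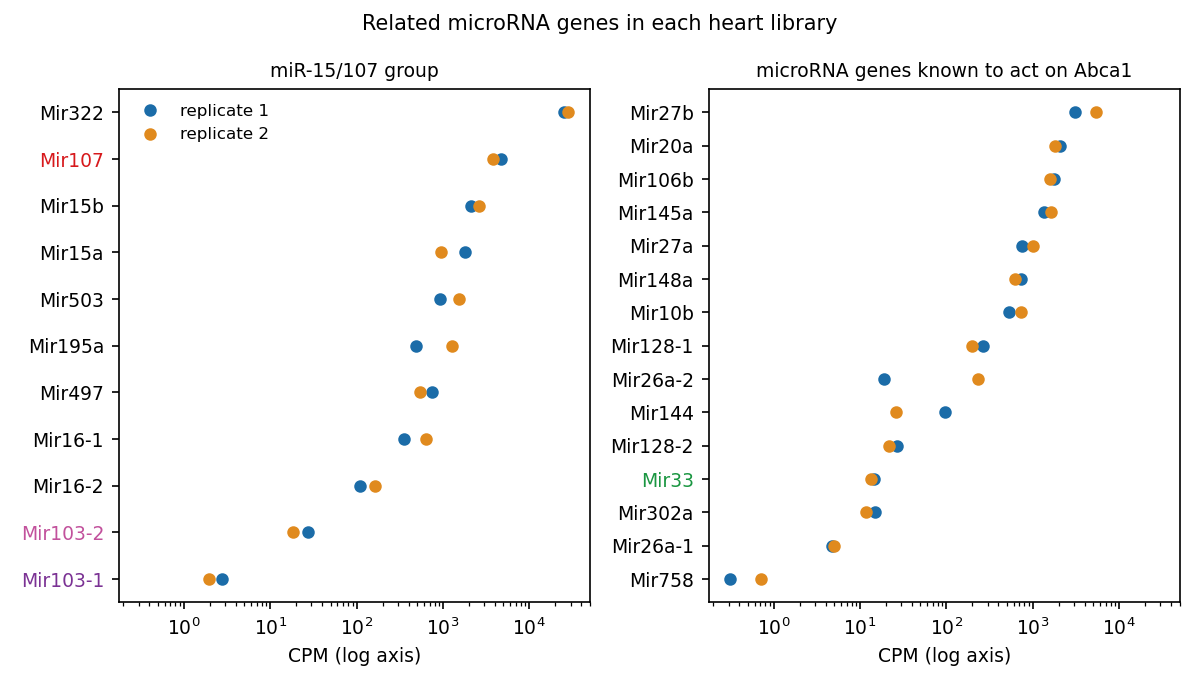
The horizontal log axis is CPM, and each gene has a point for replicate 1 and a point for replicate 2; the left panel holds the genes of miR-15, miR-107 and their relatives and the right panel the microRNA genes known to act on Abca1, without genes at 0 counts in a library. Mir107 is second from the top of the left panel at 4690 and 3772 CPM, and Mir33 lies at 14.6 and 13.2 CPM in the right panel.

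Among 16 genes known from glucose, insulin and liver lipid control, Mir107 stood at place 4, Mir103-2 at 10 and Mir103-1 at 13. The leaders were Mir378a (105623 ± 2965 CPM, SD, n = 2), Mir143 (52205 ± 9209 CPM) and Mir26b (21014 ± 453 CPM). The median of the list was 66.1 CPM. Of the 14 tested 0 passed as higher in replicate 1, Mir29c passed as higher in replicate 2 (log2 ratio −1.43), against the same 3.67% and 7.54% over all genes tested, and 13 were not called, with the 3 members of the Mir103 and Mir107 family among them. EdgeR's exact test did not call Mir29c.

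As a group, 772 microRNA genes lie inside an intron of a protein-coding gene on the same strand, as all 4 do. Of these, 384 had a count, with a median of 1.21 CPM, and all 4 genes lay above it. By mean level Mir107 stood at place 23, Mir103-2 at 96 and Mir103-1 at 148 of the 384, with Mir33 between the last pair. The leaders were Mir378a, Mirlet7g and Mir126a at 105623, 79144 and 62420 CPM. Of the 224 tested, the binomial test called 9 as higher in replicate 1, 12 as higher in replicate 2 and 203 not at all. Over all genes tested the shares were 3.67% and 7.54%, a split that turned round with total counts (39 genes higher in replicate 1 and 22 higher in replicate 2).

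The genes nearest in level were found by distance in log2(CPM + 0.5) over the 2 libraries, which describes likeness of level alone. Nearest to Mir107 were Mir423 (4940 CPM in replicate 1 and 3352 CPM in replicate 2), Mir98 (3924 and 4376 CPM) and Mir214 (5595 and 2969 CPM). Nearest to Mir103-2 were Mir212, Mir302d and Mir3058, at means of 23.9, 21.8 and 22.4 CPM. Nearest to Mir33 were Mir302a, Mir7083 and Mir302b, at means of 13.3, 14.2 and 12.1 CPM. Nearest to Mir103-1 were Mir7031, with the same 18 and 11 counts, Mir129-1 with 19 and 10, and Gm23394 with 17 and 10.

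For the libraries as a whole, the counts over microRNA genes came to 6417302 in replicate 1 and 5662222 in replicate 2, and multi-mapped reads were 39.6% and 43.2% of all reads. The heart muscle markers Mir208a, Mir208b, Mir499 and the Mir1a and Mir133a genes together held 21023 CPM in replicate 1 and 19191 CPM in replicate 2. Within that sum Mir208a held 10883 and 6019 CPM and Mir499 held 2653 and 7487 CPM, and 2 of the 7 heart muscle genes, Mir499 and Mir1a-1, were called higher in replicate 2. Each Mir1a gene held between 9 and 190 counts in a library and each Mir133a gene between 2 and 43. Nearly all of the sum therefore came from Mir208a, Mir208b and Mir499. Mir122 of liver held 105 and 86.2 CPM, the epithelial markers 422 and 315 CPM, the white blood cell markers 490 and 407 CPM, the endothelial marker 51829 and 73011 CPM, the smooth muscle markers 47055 and 60331 CPM, and the neuronal Mir9 genes between 0 and 3 counts. Of the epithelial markers Mir200c, with 420 and 284 CPM, was not called and Mir205, with 1.40 and 31.8 CPM, was called higher in replicate 2. Of the white blood cell markers Mir142, with 240 and 87.4 CPM, was called higher in replicate 1 and Mir223, with 83.1 and 148 CPM, higher in replicate 2. Mir206 of skeletal muscle held 718 and 58.5 CPM and was called higher in replicate 1 (log2 ratio 3.28). The red blood cell markers Mir451a (1.64) and Mir144 (1.56) were called higher in replicate 1 as well. Whether reads of the Mir1a, Mir133a and Mir9 genes were multi-mapped is not given. Their low counts therefore do not measure how much miR-1a, miR-133a or miR-9 the hearts held. The heart muscle sum may lack such reads, so it does not rank heart muscle against the other cell types. The part of differing cell content in the values of Mir107, Mir103-1, Mir103-2 and Mir33 was not tested, and fewer cells of a type cannot be told apart from less RNA per cell.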

How the data were processed

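Raw counts per microRNA gene were deposited by the authors, 1 file per library, on mm10 with GENCODE M21 per the file headers. Neither aligner nor counter is named by these sources. The meaning of the 3 columns (both strands, own strand, opposite strand) was inferred from the values. Summary entries stayed out of totals; 44.4% and 42.0% of reads were assigned. Of 2202 gene IDs, 2202 matched M21. Members were taken by symbol, a rule that reads no values, but lists, members and tests were chosen with earlier results of these data known. CPM used the own-strand total. The between-library test took genes with at least 10 counts in the sum, TMM factors from edgeR 4.0.16 (1.12 for replicate 1, 0.891 for replicate 2; R 4.3.3), 0.5 added to counts, and Benjamini-Hochberg adjustment, and was tested on simulated data. The simulation drew sampling noise alone, with total counts as library sizes. It therefore does not show how often the test calls unchanged genes in these libraries. The libraries differed beyond sampling noise (chi-square 933 per degree of freedom, 373 genes), so they were kept as 2 samples. Their p-values measure the spread of reads, which may be technical. Genes named are the 4 members, the 3 nearest in level to each, the 3 highest of each list and markers; listed genes that were called, and those below Mir33, were added after their values were seen. Intronic means inside a protein-coding gene on the same strand and outside the exons of its protein-coding transcripts. Alternatives were another column, total, scaling, filter, prior count or noise model. Mir497a had no match by symbol. The neuronal list spelled the Mir124 genes otherwise than the annotation, where they are Mir124a-1, Mir124a-2 and Mir124a-3, each with 0 counts in both libraries. Statistics used Python 3.11.15, scipy 1.17.1 and Biopython 1.88.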

Additional observations from a re-analysis of the deposited data

How the results depend on the processing

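No paired analysis was possible because the series has 1 group. None of the 4 genes was called under any of 7 settings of the between-library test. Mir107 turned from −0.02 under TMM to 0.31 with total counts and 0.025 with DESeq2 size factors, and Mir33 from −0.19 to 0.14 with total counts; the shift of 0.33 applies to every gene by construction. Adjusted p-values of Mir103-2 ran from 0.00238 (total counts) to 1. Scaled to all reads, levels were 1833 CPM for Mir107, 9.98 for Mir103-2, 6.03 for Mir33 and 1.03 for Mir103-1, by construction of the larger total. With the column without strand, Mir107 stood at 5279 CPM and Mir33 at 17.4 CPM, since that column has fewer counts in all. Leaving out a library gave 3772 to 4690 CPM for Mir107, 18.4 to 27.6 for Mir103-2, 13.2 to 14.6 for Mir33 and 1.94 to 2.80 for Mir103-1; the log2 ratio then has no value. Genes called numbered 55 under TMM and 4 with edgeR's estimated dispersion (2 and 2 by direction); total counts gave 39 higher in replicate 1 and 22 higher in replicate 2. The 6 pair shares were the same without strand. Of the 4 genes Mir103-1 had the fewest counts (18 and 11), and reads of the strand that it shares with Mir103-2 may be missing from them.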
